A study of Mus musculus with 7 samples.

Results

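The SPARC family of secreted matrix proteins was followed through 5 genes, Sparc, Sparcl1, Smoc1, Smoc2 and Fstl1, out of 17784 genes listed in at least 1 of 7 single-cell libraries from mouse. The genes were selected on their family and on their measured levels in these libraries, which were already known to differ, so the levels and the ratios below are a description of the libraries and carry no test. The study converted mouse embryonic fibroblasts (MEF) and primary pericytes of the cerebrum (PC), which wrap brain capillaries, directly into induced oligodendrocyte progenitor cells, and its title asks whether converted cells keep a memory of the donor cell. All cells were from C57BL/6 mice, with no age given, and every group is 1 library. The primary oligodendrocyte progenitor cells (pOPC, from brain), MEF (from embryo) and PC (from brain) were untreated. Virus carrying Olig2 and Sox10 was used for the 2-factor MEF and 2-factor PC (MEF-2F and PC-2F in the plots), and virus carrying Olig2, Sox10 and Nkx6.2 for the 3-factor MEF and 3-factor PC (MEF-3F and PC-3F in the plots). PC grew in pericyte medium, MEF in MEF medium, and pOPC and the induced cells in OPC medium, so the effect of the factors and that of the medium cannot be told apart in a comparison with a donor. The labels do not name the promoter of the virus, a selection step or the days after transduction. Cells were captured on the ddSEQ system and read from the 3′ end with unique molecular identifiers (UMIs), each of which counts 1 captured RNA molecule.

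SPARC (osteonectin) is a matricellular protein: it is secreted into the matrix, binds fibrillar and basement membrane collagens through a calcium-binding module, and regulates how collagen is deposited rather than forming the scaffold itself. SPARCL1 (hevin) shares that module and in brain is known as an astrocyte protein that links the membranes on both sides of a synapse. SMOC1 and SMOC2 are modular calcium-binding proteins of basement membranes that act on BMP signalling, and FSTL1 is a follistatin-like relative that binds BMP ligands.

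The reference sequences show how far the relatives can be told apart by short reads. On GRCm38 (GENCODE), Sparc lies on chromosome 11 from 55394500 to 55423183 (minus strand, 10 exons, 302 codons). Sparcl1 lies on chromosome 5 from 104079111 to 104113733 (minus strand, 11 exons, 650 codons). Smoc1 lies on chromosome 12 from 81026808 to 81186414 (plus strand, 12 exons, 434 codons). Smoc2 lies on chromosome 17 from 14279506 to 14404790 (plus strand, 13 exons, 447 codons). Fstl1 lies on chromosome 16 from 37776873 to 37836514 (plus strand, 11 exons, 306 codons). The most alike 90-base coding windows of the closest pairs are given here, with the bases that differ between the members of a pair in capitals. The first pair is identical at 71 of 90 bases and starts at coding base 359 of Sparc and 1400 of Sparcl1, and the second at 76 of 90 bases and starts at coding base 736 of Smoc1 and 706 of Smoc2.
Sparc: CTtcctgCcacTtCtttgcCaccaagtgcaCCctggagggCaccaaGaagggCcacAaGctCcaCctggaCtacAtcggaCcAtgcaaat
Sparcl1: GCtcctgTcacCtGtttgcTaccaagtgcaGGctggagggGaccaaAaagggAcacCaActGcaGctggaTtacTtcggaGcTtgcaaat
Smoc1: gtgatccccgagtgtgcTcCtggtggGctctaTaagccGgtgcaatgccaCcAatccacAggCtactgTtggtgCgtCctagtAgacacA
Smoc2: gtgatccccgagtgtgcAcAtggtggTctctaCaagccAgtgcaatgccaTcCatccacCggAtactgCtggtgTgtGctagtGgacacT
The longest run shared without a mismatch by the transcripts of 2 members was 33 bases, between Smoc1 and Smoc2, and 14 bases between Sparc and Sparcl1. The 3 annotated genes that overlap a member (Gm26703 on the strand opposite Sparcl1, 4930474M22Rik opposite Smoc2, and Mir3067 inside Smoc1) had 0 UMIs in the 7 libraries.

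RefSeq promoter windows (GRCm38.p6, 250 bases before to 50 after the start) were at hand for Sparc and Fstl1. Among the members these also had the most alike levels (r = 0.91 over 7 libraries, described further below). Both were lowest in pOPC, and r without that library was not computed. The Sparc window is chr11:55420031-55420330 on the minus strand, and the Fstl1 window is chr16:37776805-37777104 on the plus strand. The Sparc window lies inside the GENCODE gene interval, whose upstream end is at 55423183, so it belongs to a start within that interval. CANNTG matches (E-boxes, the letters read by basic helix-loop-helix factors such as OLIG2) are in capitals.
Sparc promoter: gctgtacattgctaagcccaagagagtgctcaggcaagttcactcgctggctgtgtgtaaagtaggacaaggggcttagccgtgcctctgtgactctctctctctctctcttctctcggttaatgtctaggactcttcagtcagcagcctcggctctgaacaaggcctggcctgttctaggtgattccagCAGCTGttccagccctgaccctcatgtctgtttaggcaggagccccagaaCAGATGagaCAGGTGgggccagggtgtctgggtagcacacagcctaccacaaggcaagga
Fstl1 promoter: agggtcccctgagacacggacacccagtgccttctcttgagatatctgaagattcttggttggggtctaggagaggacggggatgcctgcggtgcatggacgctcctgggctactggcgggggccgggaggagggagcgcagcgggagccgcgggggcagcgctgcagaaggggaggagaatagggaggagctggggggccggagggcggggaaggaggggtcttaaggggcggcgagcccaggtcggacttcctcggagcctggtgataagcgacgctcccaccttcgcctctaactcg
With both strands searched, the Sparc window held 3 CANNTG matches and the Fstl1 window 0, and 72.1% of 27025 promoters of the same length held at least 1. The letters ACAANG, which SOX factors can read, matched 3 times in Sparc and 0 times in Fstl1, against 41.6% of all promoters with a match. The GC box letters GGGCGG matched 2 times in Fstl1 and 0 times in Sparc, against 35.9% of all promoters. TAATTA (homeobox letters, 5.31% of all promoters), TATAAA (14.2%), CCAAT (37.9%), TGANTCA (7.93%) and GGAGGAGGA (2.90%) matched in neither window. None of these matches overlapped another. The windows also differed in base composition, at 55.3% GC for Sparc and 66.7% for Fstl1 beside a median of 52.7% over all promoters. A match is a description of the letters only.

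The libraries kept 82 to 290 cells each, 1124 of 1140 barcodes in all, with 229892 (2-factor MEF) to 1292290 (PC) UMIs per library and a median of 1866 (3-factor MEF) to 6259 (2-factor PC) UMIs per cell. No barcode was shared between any of the 21 pairs of libraries. Of the transduced genes, Olig2 was at 0 CPM (UMIs of a gene per 1000000 UMIs of the library) in both donors and at 65.2 to 330 CPM in the converted libraries, and Sox10 was at 0 CPM in PC, 12.7 CPM in MEF and 130 to 251 CPM in the converted libraries. The PC library went against its label in part, since the pericyte genes Rgs5, Kcnj8 and Abcc9 were at 0 in 1292290 UMIs and the other 5 of 8 pericyte markers summed to 416 CPM. In pOPC, 10 of 11 progenitor markers were detected, with a sum of 9691 CPM. In PC, 2-factor MEF and 3-factor MEF the barcodes fell into 2 blocks that the files hold one after the other, and values within blocks are given where they differ. Below, an interval covers counting error only and not the spread between cultures, which 1 library per group cannot show. The interval of a level or ratio takes UMIs as independent, so it also leaves out the spread between cells. A gene was called higher or lower at a CPM ratio of 2 or more with a 95% interval beyond 1, if it had at least 10 UMIs and 20 CPM in 1 of the 2 libraries. The comparisons of 2-factor MEF and 3-factor MEF share the MEF library, those of 2-factor PC and 3-factor PC share the PC library, and those with primary progenitors share the pOPC library.

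Sparc, the collagen-binding member, was undetected in primary progenitors and abundant in every other library. Its level was 0 CPM in pOPC (0 of 632464 UMIs, which allows up to 4.74 CPM), 6136 CPM in MEF, 2846 CPM in PC, 14446 CPM in 2-factor MEF, 6552 CPM in 3-factor MEF, 5127 CPM in 2-factor PC and 5521 CPM in 3-factor PC. The 95% Poisson intervals were 5965 to 6312 in MEF, 2755 to 2940 in PC, 13959 to 14946 in 2-factor MEF, 6319 to 6790 in 3-factor MEF, 5000 to 5257 in 2-factor PC and 5340 to 5707 in 3-factor PC. The 2-factor MEF library was highest, pOPC and PC were lowest, and no neighbours in the order of the 7 levels overlapped within counting error. In 2-factor MEF, 40.1% of the Sparc UMIs were decoded at a probability above 0.99, and the decoded total of 3321 could lie between 3259 and 3379. That range is narrower than the distance to any other library.

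The Sparc signal was spread over nearly all cells. A Sparc UMI was found in 0 of 134 pOPC cells (which allows a share of cells with a UMI of up to 2.24%, at a median depth of 3958 UMIs), 126 of 131 MEF, 282 of 290 PC, 82 of 82 2-factor MEF, 161 of 161 3-factor MEF, 178 of 179 2-factor PC and 146 of 147 3-factor PC cells. After every cell was thinned to 1000 UMIs, which removes differences in depth, the share was 94.6% in MEF, 92.9% in PC and 97.8% to 100% in the converted libraries. Per cell, Sparc ran from 4263 to 29982 CPM in 2-factor MEF with a median of 13523, and from 826 to 21638 CPM in 3-factor MEF with a median of 5642. In MEF, PC, 2-factor PC and 3-factor PC the lowest cell was at 0 and the medians were 5582, 2687, 4406 and 5330 CPM. Thus the cells of 2-factor MEF with the least Sparc still lay above the median cell of PC.

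**Figure D1:**
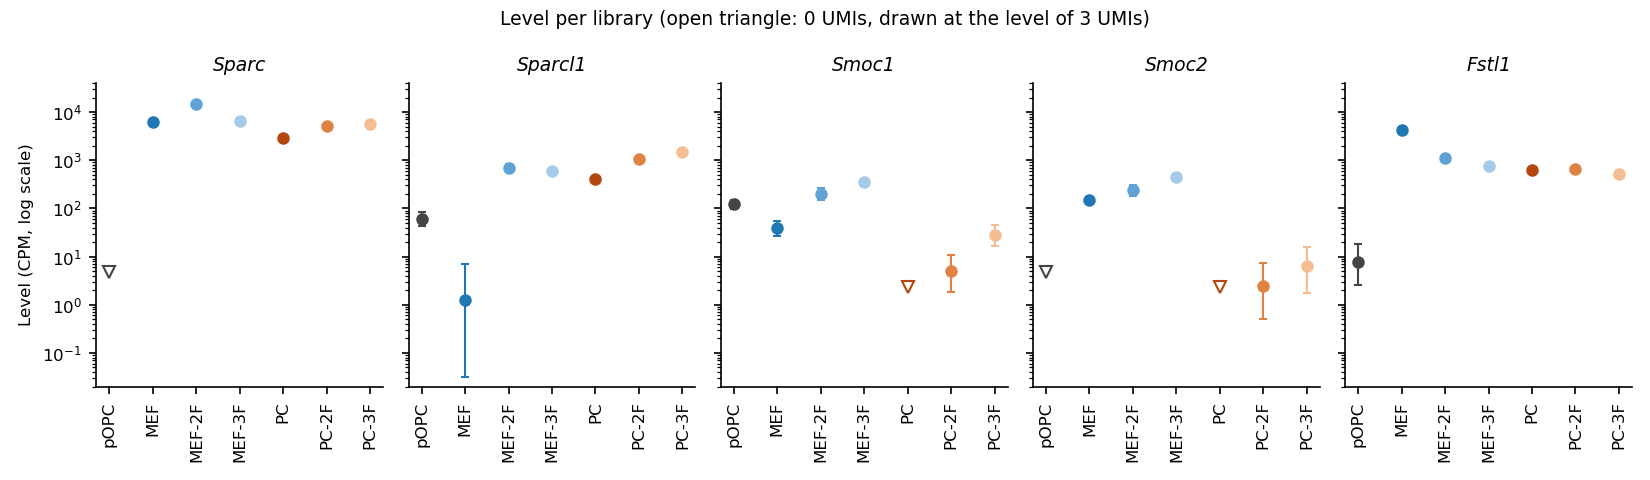
Level of each member in each library in CPM on a log axis, with 95% Poisson intervals; an open triangle marks 0 UMIs and is drawn at the level that 3 UMIs would have. Sparc is at 0 in pOPC and highest in 2-factor MEF (14446 CPM), Sparcl1 is lowest in MEF (1.27 CPM), and Smoc1 and Smoc2 are at 0 in PC.

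Over its donor, Sparc was 2.35-fold higher in 2-factor MEF (95% interval 2.25 to 2.46) and called. In 3-factor MEF it was 1.07-fold higher (1.02 to 1.12) and not called. In 2-factor PC it was 1.80-fold higher (1.73 to 1.88) and in 3-factor PC 1.94-fold higher (1.85 to 2.03), both short of the 2-fold that a call needs. Over all measured genes, 19.0% were called higher and 14.6% lower in 2-factor MEF, 23.6% and 12.7% in 3-factor MEF, 17.7% and 12.8% in 2-factor PC, and 18.8% and 15.0% in 3-factor PC. Scaling by a trimmed mean of log ratios moved all log2 ratios by -0.29 in 2-factor MEF, -0.28 in 3-factor MEF, -0.03 in 2-factor PC and -0.06 in 3-factor PC. With that scaling, 14.2% of genes were called higher and 21.4% lower in 2-factor MEF and 17.1% each way in 3-factor MEF, the Sparc ratio in 2-factor MEF was 1.93 and no longer called, and that in 3-factor MEF turned from a log2 ratio of 0.09 to -0.18. Against pOPC, with 0 UMIs, Sparc was at least 3046-fold higher in 2-factor MEF, 1381-fold in 3-factor MEF, 1081-fold in 2-factor PC and 1164-fold in 3-factor PC, taking 3 UMIs as the floor.

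Sparc also differed between the parts of a library. Cells of all libraries were clustered together with the 5 members left out, which gave 10 clusters. The MEF-derived cells split into cluster 1, led by the cartilage genes Cytl1, Col2a1 and Col11a2 (41 2-factor MEF and 143 3-factor MEF cells), and cluster 9, led by Egfl8, Art3 and the neural crest factor Foxd3 (41 2-factor MEF and 17 3-factor MEF cells). In 2-factor MEF, Sparc was 11973 CPM (11338 to 12634) in cluster 1 and 16752 CPM (16024 to 17504) in cluster 9. In 3-factor MEF it was 5759 CPM (5524 to 6001) in cluster 1 and 11415 CPM (10605 to 12270) in cluster 9. Cluster 9 was the higher in both libraries, and the intervals did not overlap. The summed level of 8 Schwann cell markers was 10002 and 7258 CPM in cluster 9 of the 2 libraries against 541 and 974 CPM in cluster 1, and its part in the Sparc level was not tested. With cluster 1 alone the 2-factor MEF ratio over MEF was 1.95 and not called, and with cluster 9 alone it was 2.73.

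Between 3-factor MEF and 2-factor MEF, Sparc was 2.20-fold lower with 3 factors (2.10 to 2.32) and called, where 9.36% of genes were called higher and 7.01% lower. Barcode blocks moved with this result. Block 1 of 3-factor MEF had 11585 CPM of Sparc and block 2 had 5315 CPM, and block 1 of 2-factor MEF had 13196 CPM and block 2 had 19080 CPM. Within cluster 1 of 3-factor MEF the same split remained, at 9473 CPM in 29 cells of block 1 and 5101 CPM in 114 cells of block 2. Over MEF, the ratio was 1.89 with block 1 alone and 0.866 with block 2 alone, neither called. What the blocks are is not stated in the sources used here, and their part in the difference between 2-factor MEF and 3-factor MEF was not tested. In the pericyte-derived libraries Sparc was nearly level, at 1.08-fold (1.03 to 1.12) in 3-factor PC over 2-factor PC, where 5.08% of genes were called higher and 5.98% lower. Across the clusters of 2-factor PC it was 5075 and 5377 CPM, and across those of 3-factor PC 4453 to 6135 CPM.

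The collagens that SPARC binds did not follow Sparc. Of 7 collagen genes on the list (Col1a1, Col1a2, Col3a1, Col4a1, Col4a2, Col5a1 and Col5a2), 5 were called lower than the donor in 2-factor MEF and 6 in 3-factor MEF, and none higher. Their median log2 ratio was -1.36 in 2-factor MEF and -2.51 in 3-factor MEF, beside 0.05 and 0.27 over all measured genes. In 2-factor PC 1 was called higher and 1 lower, and in 3-factor PC 1 higher and 3 lower, with medians of -0.58 and -0.79 beside 0.05 in both. Of all measured genes, 19.0% were called higher and 14.6% lower in 2-factor MEF, and 23.6% and 12.7% in 3-factor MEF. The shares were 17.7% and 12.8% in 2-factor PC, and 18.8% and 15.0% in 3-factor PC. The 1 of 7 either way in 2-factor PC and the 1 of 7 higher in 3-factor PC are near these shares. Col1a1, a chain of the main fibrillar collagen, was at 1.58 CPM in pOPC, 4816 in MEF, 600 in PC, 1422 in 2-factor MEF, 155 in 3-factor MEF, 373 in 2-factor PC and 773 in 3-factor PC. Its level in 3-factor MEF was 31.1-fold below MEF (24.6 to 39.9), in the library where Sparc stayed within 1.07-fold of MEF. Col3a1, the collagen of loose connective tissue, was at 0 CPM in pOPC, 2091 in MEF, 184 in PC, 2753 in 2-factor MEF, 2578 in 3-factor MEF, 534 in 2-factor PC and 1261 in 3-factor PC. It was the collagen called higher than the donor in 2-factor PC (2.90-fold, 2.49 to 3.38) and 3-factor PC (6.85-fold, 5.92 to 7.95). Col4a1, of the basement membrane, was at 3303 CPM in PC, 1621 in 2-factor PC and 534 in 3-factor PC, which is 2.04-fold (1.93 to 2.15) and 6.19-fold (5.54 to 6.93) lower. All 7 collagens were called higher than in pOPC in each of the 4 converted libraries, where 18.3% to 19.9% of all measured genes were.

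**Figure D2:**
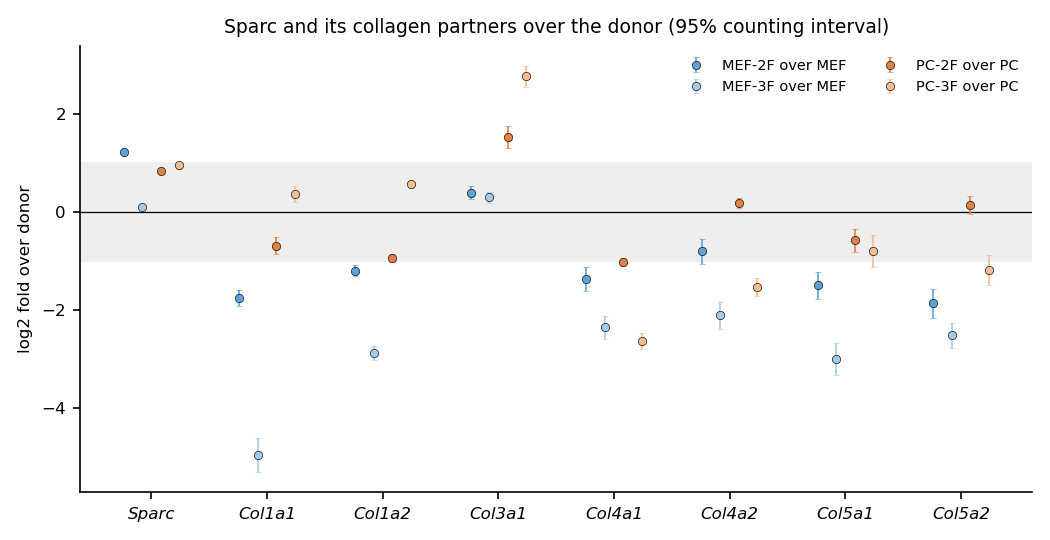
Log2 ratio of the CPM level in each converted library over its donor for Sparc and 7 collagen genes, with 95% counting intervals; the grey band spans a ratio of 2 either way. Sparc lies above 0 in all 4 comparisons on the CPM scale (in MEF-3F it lies at -0.18 with the trimmed mean scaling), while Col1a1 falls to -4.95 in 3-factor MEF and Col4a1 lies below the band in all 4.

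Of the other matricellular genes, 12 of 15 were measured against MEF and 10 of 15 against PC. In 2-factor MEF 3 were called higher and 7 lower, in 3-factor MEF 0 higher and 8 lower, in 2-factor PC 3 higher and 2 lower, and in 3-factor PC 4 higher and 2 lower. The shares over all measured genes, higher and lower, were 19.0% and 14.6%, 23.6% and 12.7%, 17.7% and 12.8%, and 18.8% and 15.0% in that order, so the 2 lower genes of 10 in the PC-derived libraries are near the share of all genes. Postn, which encodes periostin, was at 0 CPM in pOPC, 753 in MEF, 10.1 in PC, 1775 in 2-factor MEF, 1002 in 3-factor MEF, 909 in 2-factor PC and 1584 in 3-factor PC. Over PC it was 90.4-fold higher in 2-factor PC (52.6 to 170) and 157-fold higher in 3-factor PC (91.7 to 297). Tnc, which encodes tenascin-C, was at 555 CPM in MEF, 187 in 2-factor MEF and 63.3 in 3-factor MEF, and at 0 in PC, 43.4 in 2-factor PC and 3.15 in 3-factor PC. Tgfbi was called higher in 2-factor MEF (log2 ratio 1.76) and the CCN family gene Wisp1 lower in all 4 libraries (log2 ratios -5.05, -6.41, -3.32 and -2.24). Of the 7 genes for receptors and uptake, 5 were measured in each comparison: none was called higher and 2 lower in 2-factor MEF and in 3-factor MEF, and 1 higher and 2 lower in 2-factor PC and in 3-factor PC. The 1 of 5 higher in these is near the 17.7% and 18.8% of all genes, and each count rests on 5 genes. Itgav, an integrin subunit for matricellular ligands, was at 189 CPM in PC, 396 in 2-factor PC and 542 in 3-factor PC, and Vcam1, named as a SPARC partner on endothelium, at 154, 14.2 and 12.6 CPM.

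Sparcl1, the synapse-bridging relative, was all but absent from the MEF library and abundant in the PC library and in all 4 converted libraries. Its level was 60.1 CPM in pOPC, 1.27 CPM in MEF (1 UMI), 412 CPM in PC, 700.3 CPM in 2-factor MEF, 585 CPM in 3-factor MEF, 1042 CPM in 2-factor PC and 1499 CPM in 3-factor PC. The intervals were 42.5 to 82.5 in pOPC, 0.0321 to 7.06 in MEF, 378 to 449 in PC, 596 to 817 in 2-factor MEF, 517 to 659 in 3-factor MEF, 985 to 1101 in 2-factor PC and 1406 to 1598 in 3-factor PC. The converted libraries were the 4 highest, and only 2-factor MEF and 3-factor MEF were not apart within counting error. A Sparcl1 UMI was found in 32 of 134 pOPC, 1 of 131 MEF, 175 of 290 PC, 49 of 82 2-factor MEF, 95 of 161 3-factor MEF, 152 of 179 2-factor PC and 134 of 147 3-factor PC cells. At 1000 UMIs per cell the shares were 10.3%, 0%, 29.6%, 44.0%, 44.3%, 55.6% and 70.5% in the same order. MEF came nearest to lacking the gene, with 1 UMI at a median depth of 4648 UMIs per cell, while median depths ran from 1866 to 6259 elsewhere.

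**Figure D3:**
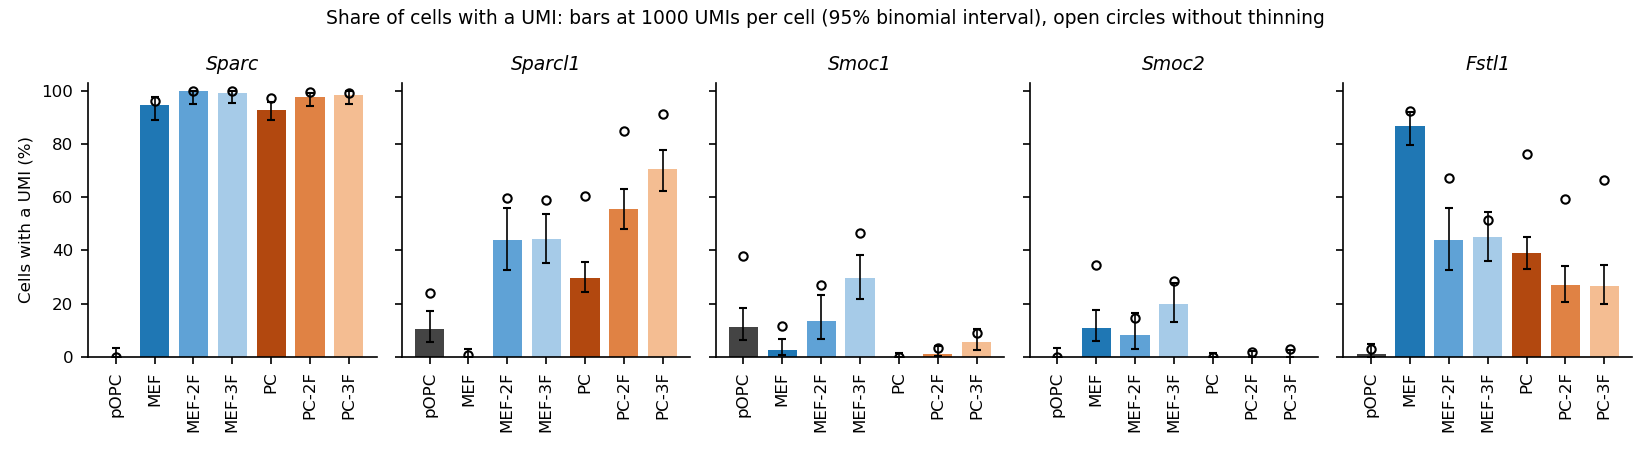
Percent of cells with at least 1 UMI of each member, as bars after thinning each cell to 1000 UMIs with 95% exact binomial intervals, and as open circles without thinning. Sparc is in 92.9% or more of the thinned cells outside pOPC, and Sparcl1 rises from 29.6% in PC to 55.6% in 2-factor PC and 70.5% in 3-factor PC.

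Sparcl1 was called higher than the donor in all 4 converted libraries. It was 553-fold higher in 2-factor MEF (97.9 to 21979) and 462-fold in 3-factor MEF (82.2 to 18311), where the wide intervals come from the 1 UMI in MEF. It was 2.53-fold higher in 2-factor PC (2.28 to 2.80) and 3.64-fold in 3-factor PC (3.27 to 4.05). Against pOPC it was 11.7-fold higher in 2-factor MEF (8.14 to 17.1), 9.73-fold in 3-factor MEF (6.91 to 14.1), 17.3-fold in 2-factor PC (12.6 to 24.6) and 25.0-fold in 3-factor PC (18.0 to 35.5). MEF stood 326-fold below PC (58.2 to 12889), whereas 2-factor MEF stood 1.49-fold below 2-factor PC (1.26 to 1.76) and 3-factor MEF 2.56-fold below 3-factor PC (2.24 to 2.95). Astrocytes are its best known source in brain: of 7 astrocyte markers 3 were detected in 2-factor MEF, 6 in 3-factor MEF, 5 in 2-factor PC and 3 in 3-factor PC, with sums of 348, 1318, 508 and 743 CPM beside 275 in MEF and 229 in PC. Each of these sums was above that of its donor. In pOPC the sum was 658 CPM, above those of 2-factor MEF and 2-factor PC, at a Sparcl1 level of 60.1 CPM. Aqp4, which marks mature astrocytes, was detected in 3-factor MEF and at 0 in the other 6 libraries. Aldh1l1, another of the 7 markers, was at 0 in 3-factor MEF and detected in MEF and 2-factor PC. In the converted libraries the endothelial markers summed to 0 to 4.36 CPM, beside 261 CPM in PC and 120 CPM in MEF. The part of other cell types was not tested.

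Within libraries Sparcl1 followed the clusters. In 2-factor MEF it was 1001 CPM (823 to 1205) in cluster 1 and 420 CPM (312 to 554) in cluster 9, while in 3-factor MEF the values of 608 CPM (533 to 690) and 450 CPM (301 to 646) overlapped. In PC it was 525 CPM (479 to 575) in cluster 2, led by Krt20, and 152 CPM (116 to 196) in cluster 5, led by Lyz2, Krt19 and Msln. In 2-factor PC it was 1137 CPM (1071 to 1206) in cluster 3, led by Oca2 and Lcn2, and 604 CPM (504 to 717) in cluster 8, led by the stromal genes Mmp3, Ccl11 and Dcn. In 3-factor PC it was 1726 CPM (1580 to 1882) in cluster 7, with Clca2 and Igfbp2 among its leading genes, 1009 CPM (859 to 1178) in cluster 10, led by Irf8, and 766 CPM (630 to 923) in cluster 8. Cluster 8 was thus the lowest for Sparcl1 in both pericyte-derived libraries, and with that cluster alone the ratio over PC was 1.46 in 2-factor PC and 1.86 in 3-factor PC, neither called. Clusters 3, 7 and 10 hold cells of nearly 1 library each, so a cluster there cannot be told apart from its library.

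The neuroligins on the list of synapse partners were sparse. Nlgn2 was at 47.4 CPM in pOPC, 2.53 in MEF, 10.8 in PC, 30.4 in 2-factor MEF, 28.4 in 3-factor MEF, 18.3 in 2-factor PC and 56.7 in 3-factor PC. It was called higher than the donor in 3-factor MEF (11.2-fold, 2.54 to 102) and in 3-factor PC (5.23-fold, 2.75 to 10.5), and was too low to be measured in the 2-factor libraries. Nlgn1 was at 36.4 CPM in pOPC and at 0 to 5.84 CPM elsewhere.

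Smoc1 and Smoc2 were both found in MEF and in the MEF-derived cells, and both were at 0 in PC and scarce in the PC-derived cells. Smoc1 was at 122 CPM in pOPC (96.1 to 152), 39.3 in MEF (26.7 to 55.7), 0 in PC, 200.1 in 2-factor MEF (146 to 267), 358 in 3-factor MEF (305 to 417), 5.00 in 2-factor PC (1.84 to 10.9) and 28.3 in 3-factor PC (16.8 to 44.8). Smoc2 was at 0 CPM in pOPC, 147 in MEF (121 to 176), 0 in PC, 239 in 2-factor MEF (180 to 311), 450 in 3-factor MEF (390 to 515), 2.502 in 2-factor PC (0.516 to 7.31) and 6.30 in 3-factor PC (1.72 to 16.1). A count of 0 allows up to 2.32 CPM in PC and 4.74 CPM in pOPC. Smoc1 in MEF and 3-factor PC was not apart within counting error. Nor were neighbours in the order of Smoc2 among pOPC, PC, 2-factor PC and 3-factor PC. Smoc2 in 3-factor PC over PC had an interval from 1.34, on 4 against 0 UMIs, too few to be measured. Smoc1 was the 1 member with its highest untreated level in primary progenitors.

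Cells with a Smoc1 UMI numbered 51 of 134 in pOPC, 15 of 131 in MEF, 0 of 290 in PC, 22 of 82 in 2-factor MEF, 75 of 161 in 3-factor MEF, 6 of 179 in 2-factor PC and 13 of 147 in 3-factor PC. Cells with a Smoc2 UMI numbered 0 of 134, 45 of 131, 0 of 290, 12 of 82, 46 of 161, 3 of 179 and 4 of 147 in the same order, and 0 of 290 allows a share of cells with a UMI of up to 1.03%. At 1000 UMIs per cell, the share with Smoc1 was 29.5% in 3-factor MEF, 13.3% in 2-factor MEF and 11.2% in pOPC, and the share with Smoc2 was 19.7% in 3-factor MEF, 8.0% in 2-factor MEF and 10.9% in MEF. Smoc2 was concentrated in few cells: the 9 cells with the most Smoc2 held 94.5% of its UMIs in 2-factor MEF, and 17 cells held 80.6% in 3-factor MEF.

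Over MEF, Smoc1 was 5.10-fold higher in 2-factor MEF (3.16 to 8.32) and 9.12-fold higher in 3-factor MEF (6.18 to 13.9), both called. Smoc2 was 1.63-fold higher in 2-factor MEF (1.16 to 2.26), which is no call, and 3.06-fold higher in 3-factor MEF (2.43 to 3.88), which is called. Over PC, Smoc1 with 18 UMIs was at least 12.2-fold higher in 3-factor PC, a call lost when cells were thinned to 1000 UMIs, and the other PC-derived values were too low to be measured. MEF stood at least 16.9-fold above PC for Smoc1 (95% interval from 12.9) and at least 63.3-fold for Smoc2 (from 50.6), with 3 UMIs taken as the floor of PC. 2-factor MEF stood 40.0-fold above 2-factor PC for Smoc1 (17.0 to 115) and 95.6-fold for Smoc2 (31.1 to 478), where 2-factor PC had 3 UMIs. 3-factor MEF stood 12.6-fold above 3-factor PC for Smoc1 (7.74 to 21.8) and 71.4-fold for Smoc2 (27.5 to 264). Against pOPC, Smoc1 was 2.94-fold higher in 3-factor MEF (2.23 to 3.91) and called, 1.64-fold higher in 2-factor MEF (1.12 to 2.40) and not called, 24.3-fold lower in 2-factor PC (10.7 to 68.3), and 4.29-fold lower in 3-factor PC (2.55 to 7.63). The last call was lost at 1000 UMIs per cell. Smoc2 was at least 50.4-fold and 94.8-fold higher than in pOPC in 2-factor MEF and 3-factor MEF.

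Both genes were higher in the cartilage-gene cluster of the MEF-derived cells than in cluster 9. Of 122 thinned 3-factor MEF cells, 5 held a UMI of both genes, 31 of Smoc1 only and 19 of Smoc2 only. In 2-factor MEF, cluster 1 had 388 CPM of Smoc1 (281 to 522) and 496 CPM of Smoc2 (374 to 645), and cluster 9 had 25.2 CPM of Smoc1 (5.20 to 73.7, 3 UMIs) and 0 of Smoc2, at median depths of 2352 and 2509 UMIs per cell. In 3-factor MEF, cluster 1 had 392 CPM of Smoc1 (332 to 459) and 511 CPM of Smoc2 (443 to 587), and cluster 9 had 155 CPM (74.4 to 285) and 77.5 CPM (25.2 to 181). Within cluster 1 the intervals of the 2 libraries overlapped for both genes, and cluster 1 held 41 of 82 2-factor MEF cells and 143 of 161 3-factor MEF cells. For Smoc2 the cluster 1 value of 3-factor MEF joined unlike barcode blocks, at 1370.3 CPM in block 1 and 359 CPM in block 2. The part of the cluster shares in the library levels was not tested. The summed level of the 6 cartilage markers was 19979 CPM in cluster 1 and 1496 CPM in cluster 9 of 2-factor MEF, and 15358 and 3133 CPM in 3-factor MEF, and its part in the Smoc levels was not tested. With cluster 1 alone, Smoc2 in 2-factor MEF was 3.38-fold above MEF (2.40 to 4.69) and called. Its 55 UMIs there came from 12 of 41 cells, and 1 cell held 22 of them. With cluster 9 alone, the Smoc1 log2 ratio in 2-factor MEF was -0.44 and the Smoc2 log2 ratio in 3-factor MEF was -0.79. In 3-factor PC all 18 Smoc1 UMIs were in cluster 7. Cartilage markers were also high in the PC-derived libraries, at 6129 CPM in 2-factor PC and 7117 CPM in 3-factor PC, where both Smoc genes were scarce.

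**Figure D4:**
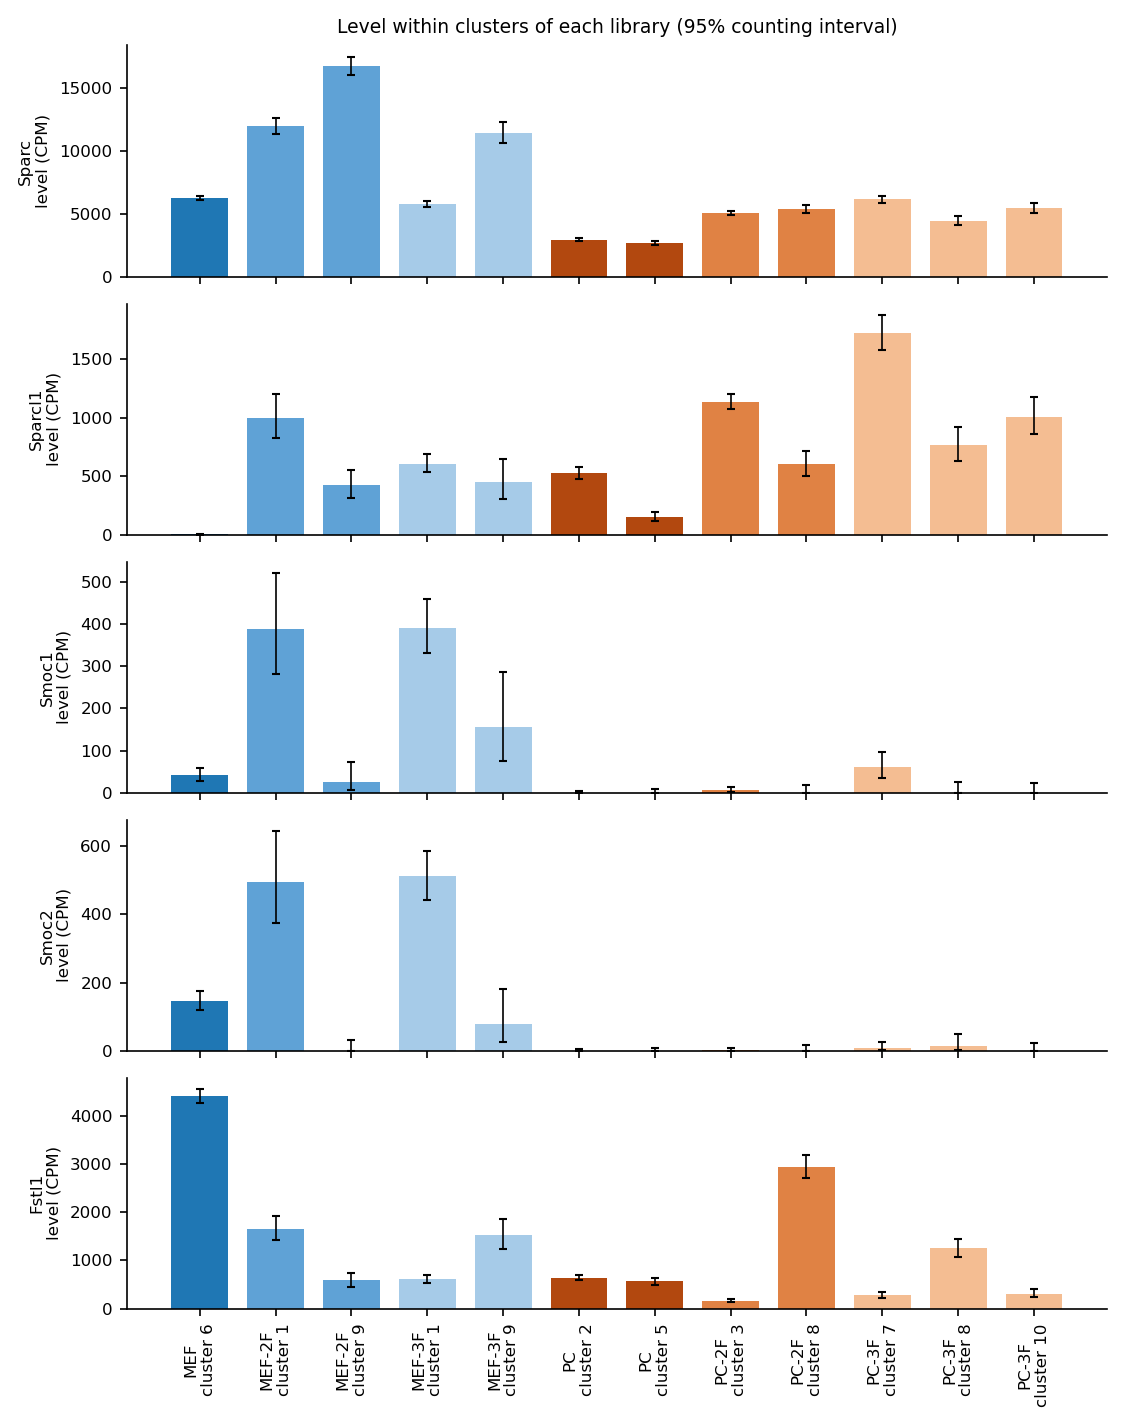
CPM level of each member within the clusters of each donor and converted library, with 95% Poisson intervals. In the MEF-derived libraries Smoc1 and Smoc2 are higher in cluster 1 (388 and 496 CPM in 2-factor MEF) and Sparc is higher in cluster 9. In 2-factor PC Fstl1 reaches 2939 CPM in cluster 8.

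Between 3-factor MEF and 2-factor MEF the ratios were 1.79 for Smoc1 (1.28 to 2.54) and 1.88 for Smoc2 (1.39 to 2.58), neither called. Smoc2 was called at 2.04-fold in cells with at least 1000 UMIs and at 2.31-fold after thinning. Its level differed between the barcode blocks of 3-factor MEF, at 907 CPM in block 1 and 337 CPM in block 2, and at 1370.3 and 359 CPM within cluster 1. Between 3-factor PC and 2-factor PC, Smoc1 was 5.66-fold higher (2.15 to 17.4) and called on 18 against 6 UMIs, and not called after thinning.

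Of the BMP pathway, on which SMOC proteins and FSTL1 act, 2 of 11 measured genes were called higher than the donor in 2-factor MEF and 6 lower, beside 19.0% and 14.6% of all measured genes. In 3-factor MEF 2 of 12 were called higher and 5 lower, beside 23.6% and 12.7%. In 2-factor PC 3 of 11 were called higher and 5 lower, beside 17.7% and 12.8%, and in 3-factor PC 3 of 11 higher and 4 lower, beside 18.8% and 15.0%. The counts of higher genes in both MEF-derived libraries were thus no larger than these shares give. Bmp4, a ligand that FSTL1 binds, was at 156 CPM in MEF, 1.55 in PC and 0 in the 4 converted libraries and in pOPC. Bmp7, another ligand, was at 272 CPM in pOPC, 3.80 in MEF, 3.10 in PC, 8.70 in 2-factor MEF, 28.4 in 3-factor MEF, 85.9 in 2-factor PC and 276 in 3-factor PC. It was 89.0-fold above PC in 3-factor PC (34.2 to 330) and 27.8-fold in 2-factor PC (10.5 to 104). Id2, which BMP signals can induce, was at 343 CPM in pOPC, 186 in MEF, 65.8 in PC, 669.9 in 2-factor MEF, 720.2 in 3-factor MEF, 179 in 2-factor PC and 480.3 in 3-factor PC. Id1, also induced by BMP, was at 0 CPM in pOPC, 357 in MEF, 282 in PC, 130 in 2-factor MEF, 181 in 3-factor MEF, 120 in 2-factor PC and 78.7 in 3-factor PC, and it was called lower than the donor in all but 3-factor MEF. Id3 was at 12.6 CPM in pOPC, 1024 in MEF, 351 in PC, 592 in 2-factor MEF, 1032 in 3-factor MEF, 410.4 in 2-factor PC and 195 in 3-factor PC, with no call against a donor. Smad6, an inhibitor inside the cell, ran from 3.15 to 13.0 CPM in the converted libraries, below its 51.9 CPM in MEF and 41.8 CPM in PC. Grem1, a secreted BMP antagonist, was at 55.7 CPM in MEF, 102 in PC, 24.2 in 2-factor PC and 0 in the other converted libraries.

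Fstl1, the follistatin-like member, was highest in untreated fibroblasts and lower in the cells made from them. Its level was 7.91 CPM in pOPC (5 UMIs, 2.57 to 18.4), 4223 in MEF (4081 to 4369), 621 in PC (579 to 666), 1105 in 2-factor MEF (973 to 1249), 742 in 3-factor MEF (665 to 825), 667 in 2-factor PC (622 to 715) and 507 in 3-factor PC (453 to 566). 3-factor MEF and 2-factor PC, and 2-factor PC and PC, were not apart within counting error. Cells with an Fstl1 UMI numbered 4 of 134 pOPC, 121 of 131 MEF, 221 of 290 PC, 55 of 82 2-factor MEF, 83 of 161 3-factor MEF, 106 of 179 2-factor PC and 98 of 147 3-factor PC. At 1000 UMIs per cell these shares were 0.862%, 86.8%, 39.0%, 44.0%, 45.1%, 27.0% and 26.7%. In the converted libraries Fstl1 was thus found in 45.1% of thinned cells or fewer, and Sparc in 97.8% or more.

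Below MEF, Fstl1 was 3.82-fold lower in 2-factor MEF (3.36 to 4.36) and 5.69-fold lower in 3-factor MEF (5.09 to 6.38), both called. The summed level of 9 fibroblast markers also fell, from 24622 CPM in MEF to 13424 in 2-factor MEF and 7464 in 3-factor MEF. From PC it rose instead, at 4631 CPM in PC, 10138 in 2-factor PC and 15034 in 3-factor PC. Some single markers moved against these sums. From MEF to 2-factor MEF, Col3a1 rose from 2091 to 2753 CPM and Postn from 753 to 1775 CPM. From PC to 2-factor PC, Col1a1 fell from 600 to 373 CPM and Col1a2 from 2793 to 1451 CPM. The part of these markers in the Fstl1 level was not tested. Over PC, Fstl1 was 1.07-fold in 2-factor PC (0.972 to 1.19) and 0.816-fold in 3-factor PC (0.715 to 0.930), neither called. Against pOPC it was 139.8-fold higher in 2-factor MEF (59.1 to 434), 93.9-fold in 3-factor MEF (39.8 to 291), 84.4-fold in 2-factor PC (36.0 to 261) and 64.1-fold in 3-factor PC (27.2 to 199). The donors differed 6.80-fold (6.29 to 7.35, MEF over PC), while 2-factor MEF stood 1.66-fold over 2-factor PC (1.43 to 1.91) and 3-factor MEF 1.46-fold over 3-factor PC (1.25 to 1.71). The difference between these ratios was not tested.

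The 2-factor PC value joined unlike cells. Fstl1 was 167 CPM (143 to 195) in the 147 cells of cluster 3 and 2939 CPM (2715 to 3177) in the 31 cells of cluster 8, which held 79.1% of the Fstl1 UMIs of the library. In 3-factor PC it was 283 CPM (226 to 351) in cluster 7, 315 CPM (234 to 416) in cluster 10 and 1256 CPM (1080 to 1453) in the 27 cells of cluster 8. Cluster 8 was the high one in both libraries. Sox10 was at 9.29 and 13.8 CPM there, against 305, 260 and 252 CPM in clusters 3, 7 and 10, so in both libraries the cluster with the most Fstl1 had the least Sox10. The summed level of 9 fibroblast markers was 9699 CPM in cluster 8 and 10245 in cluster 3 of 2-factor PC, and 16823, 12658 and 18125 CPM in clusters 8, 7 and 10 of 3-factor PC. Smooth muscle markers summed to 488 and 152 CPM in cluster 8 and to 16.9 to 32.6 CPM in the other 3, and their part was not tested. Without cluster 8, Fstl1 was 3.66-fold below PC in 2-factor PC (3.09 to 4.35) and 2.18-fold below in 3-factor PC (1.82 to 2.62), both called. Cells of 2-factor PC with an Olig2 or Sox10 UMI among 1000 had 83.3 CPM of Fstl1 (22.7 to 213, 48 cells, 4 UMIs), and cells with neither had 769 CPM (626 to 936, 130 cells). In 2-factor MEF the values were 250.0 CPM (51.6 to 731, 12 cells, 3 UMIs) and 1254 CPM (993 to 1563, 63 cells). In the 3-factor libraries the intervals of the same split overlapped, at 625 CPM (422 to 892, 48 cells) with and 986 CPM (773 to 1240, 74 cells) without in 3-factor MEF. In 3-factor PC they were 220 CPM (100.4 to 417, 41 cells) and 429 CPM (313 to 573, 105 cells). A cell with no UMI of these genes among 1000 may still hold their RNA.

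In 2-factor MEF, Fstl1 was 1659 CPM (1428 to 1917) in cluster 1 and 588 CPM (459 to 743) in cluster 9, and in 3-factor MEF the order was the opposite, at 616 CPM (540 to 698) and 1520 CPM (1234 to 1852). In 2-factor MEF a few cells carried the gap: the 9 cells with the most Fstl1 held 61.0% of its UMIs and the highest reached 14973 CPM, while the median cell was at 563 CPM in cluster 1 and 476 CPM in cluster 9, with Fstl1 in 28 of 41 and 27 of 41 cells. In 3-factor MEF the median cell was at 0 in cluster 1 and 1215 CPM in cluster 9. Each of these was below the level of MEF. Blocks moved with Fstl1 as well, at 1304 and 368 CPM in blocks 1 and 2 of 2-factor MEF, 1438 and 571 CPM in those of 3-factor MEF, and 376 and 656 CPM in those of PC. Of the genes for FSTL1 receptors, Dip2a was at 34.8 to 73.5 CPM in all libraries and not called against a donor. Cd14 was at 19.3 CPM in PC, 41.7 in 2-factor PC and 203 in 3-factor PC, called higher by 2.16-fold (1.31 to 3.64) and 10.5-fold (6.80 to 16.8). Tlr4 was at 0 to 18.3 CPM and not measured in any comparison with a donor.

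**Figure D5:**
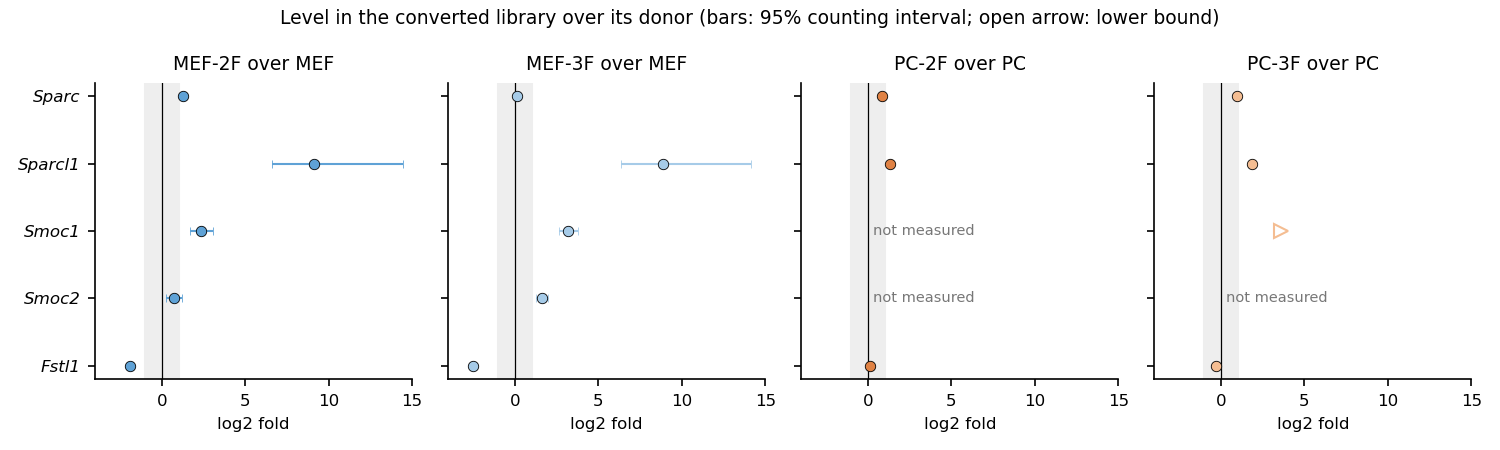
Log2 ratio of the CPM level in each converted library over its donor for the 5 members, with 95% counting intervals; an open arrow is a lower bound from 0 UMIs in the donor. Sparcl1 lies to the right in all 4 panels, and Fstl1 lies to the left in the MEF-derived panels and near 0 in the PC-derived ones.

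Counted over the family, 3 of 5 members were called higher and 1 lower in 2-factor MEF and likewise in 3-factor MEF. Of all measured genes, 19.0% were higher and 14.6% lower in 2-factor MEF, and 23.6% and 12.7% in 3-factor MEF. In 2-factor PC 1 of the 3 measured members was called higher, and in 3-factor PC 2 of 4, with none lower. The shares of all genes were 17.7% and 12.8% in 2-factor PC, and 18.8% and 15.0% in 3-factor PC. Sparcl1 was among the members called higher in every one of these libraries. Against pOPC, 4 of 5 were called higher in 2-factor MEF, where 18.3% of all measured genes were higher and 24.9% lower, and 5 of 5 in 3-factor MEF, where 19.9% were higher and 19.5% lower. In 2-factor PC and in 3-factor PC 3 of 4 measured members were higher and 1, Smoc1, lower, where 19.9% and 19.0% of all genes were higher and 21.1% and 21.8% lower. Of the donors, MEF had 3 of 5 members called higher than pOPC (Sparc, Smoc2 and Fstl1) and 2 lower, where 19.5% of all genes were higher and 32.3% lower. PC had 3 of 4 measured members higher (Sparc, Sparcl1 and Fstl1) and Smoc1 lower, where 20.6% were higher and 27.7% lower. Since the genes were chosen with these ratios known, the counts describe them and nothing is read from the shares. Between the donors, Sparc (2.16-fold, 2.07 to 2.25), Fstl1, Smoc1 and Smoc2 were higher in MEF and Sparcl1 higher in PC, where 15.9% of all genes were higher in MEF and 20.5% higher in PC. Between 2-factor MEF and 2-factor PC, Sparc (2.82-fold, 2.70 to 2.94), Smoc1 and Smoc2 were called higher and none lower, where 12.0% of all genes were higher and 15.0% lower. Between 3-factor MEF and 3-factor PC, Smoc1 and Smoc2 were called higher and Sparcl1 lower, where 15.5% of all genes were higher and 12.6% lower, and Sparc was at 1.19-fold (1.13 to 1.25) with no call.

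Over the 7 libraries, the genes with a level pattern most like a member were ranked by the Pearson correlation of log2(CPM + 10) among 3959 genes, given as a description over 7 points that share library depth. For Sparc these were Laptm4a (r = 0.999), Serpinh1 (0.998), which encodes the collagen chaperone HSP47, and Fkbp9 (0.993). For Sparcl1 they were Tmed10 (0.981), Asph (0.974) and Net1 (0.967). For Smoc1 they were the immediate early gene Egr1 (0.979) and Maged1 (0.968), and for Smoc2 the Notch-ligand relative Dlk1 (0.991), the immediate early gene Fosb (0.988) and Igdcc4 (0.984). For Fstl1 they were the lysosomal protease gene Ctsd (0.991), Col5a2 (0.990) and Pdia5 (0.979). Serpinh1 was at 1.58 CPM in pOPC, 2924 in MEF, 1580.1 in PC, 5068 in 2-factor MEF, 2307 in 3-factor MEF, 2477 in 2-factor PC and 3025 in 3-factor PC, so that 2-factor MEF was again the highest and pOPC the lowest. Among the members, Sparc and Fstl1 had r = 0.91 and Smoc1 and Smoc2 r = 0.72. Sparc (0 CPM) and Fstl1 (7.91 CPM) were both lowest in pOPC. Their highest libraries differed, 2-factor MEF for Sparc and MEF for Fstl1. How far their r rests on pOPC was not computed. The more distant relatives were nearly absent: Spock2 was at 0 to 13.0 CPM, Spock3 at 0 to 7.60 CPM, and Spock1 was listed in none of the libraries.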

How the data were processed

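Per the labels' protocols, 3′ libraries with cell barcodes and UMIs were made from 7 mouse populations with the SureCell WTA 3′ kit, 1 library each. Tools listed without role or order in the submitters' processing notes are STAR 2.5.3a, featureCounts 1.6.1, Subread, UMI-tools 0.5.3 and bcl2fastq 2.19.1.403, beside the build mm10. Other settings, strand included, are not given in the sources used here. The authors deposited 1 table of genes by barcodes per library whose values are whole-number codes of unit other, not counts: each was read as the place of a UMI count in the text-sorted list of counts that occur in a block of barcodes. The plan had assumed counts, so codes were first decoded to the most probable list of counts per block. The decoder was tested on simulated data, and its error matters at high counts (Sparc in 2-factor MEF). A table lists only genes with a value in at least 1 barcode, so a gene with no row was read as 0 UMIs. The tables held 0 columns outside the 7 libraries.

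Cells with at least 500 UMIs and at most 20% mitochondrial UMIs were kept. UMIs were summed per library and divided by all UMIs (CPM), with exact 95% Poisson intervals, and ratios have exact intervals conditional on both counts; they cover counting error only. With 1 library per group no test between groups exists. Cells were thinned to 1000 UMIs for shares (7 to 39 cells were left out in pOPC, PC, 2-factor MEF and 3-factor MEF as shallower and 1 or 2 elsewhere). Doublets were not called; an alternative leaves out the cells with the most UMIs. Clusters came from 2000 variable genes without the members, 20 principal components and Leiden clustering at resolution 0.8 (Python 3.11.15, scipy 1.17.1, scikit-learn 1.9.0, leidenalg 0.10.2). Free RNA in droplets was not measured. The members and the gene lists were chosen with earlier results of these data known. Of each list the text gives the counts and the median, names genes with the largest ratios, and adds some more chosen after their values were seen; of each member it names those most alike over libraries among the first 3. Some genes are not reported here. Sequences came from GENCODE M21 and RefSeq, with promoters matched for 2 of 5 members.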

Additional observations from a re-analysis of the deposited data

How the results depend on the processing

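Of 119 log2 ratios to a donor under other settings (scaling, filters, thinning, depth minimum, cells with the most UMIs left out), 117 kept their call. Other thresholds for a call are not among these ratios, and their effect is given below with the number of members called. Of 126 ratios to pOPC 124 did, and of 63 ratios of 3 to 2 factors 60 did. The exceptions are given beside the results, but for Smoc1 in 2-factor MEF against pOPC, called at 2.03-fold with the mean of per-cell CPM. Of 79 ratios under alternatives chosen after seeing the data (barcode blocks, clusters), 61 kept their call. Those not yet given are Smoc1 in 2-factor MEF (2.09-fold and no call in block 2), Smoc2 in 2-factor MEF (called lower in cluster 9), Sparc in 3-factor PC (2.16-fold in cluster 7 and 2.05-fold without cluster 8, both called), Smoc1 in 3-factor PC (0 UMIs in clusters 8 and 10), and Fstl1 (3.71-fold lower in cluster 3 and 4.73-fold higher in cluster 8 of 2-factor PC, 2.194-fold lower in cluster 7 and 2.02-fold higher in cluster 8 of 3-factor PC). Of ratios called in the report, those that changed sign had log2 values of -0.44 (Smoc1, 2-factor MEF) and -0.79 (Smoc2, 3-factor MEF), both with cluster 9 only. Ratios without a call also changed sign: Sparc in 3-factor MEF (from 0.09 to -0.18 by trimmed mean, -0.21 in block 2 and -0.09 in cluster 1), Smoc2 in 2-factor MEF (0 UMIs in cluster 9), Fstl1 in 2-factor PC (from 0.10 to -1.89 in cluster 3, -1.87 without cluster 8 and -0.01 without the cells with most UMIs) and Fstl1 in 3-factor PC (from -0.29 to 1.02 in cluster 8 and 0.42 against block 1 of PC). The number of members called was 4 in 2-factor MEF and became 2 at a 4-fold threshold. It was 4 in 3-factor MEF and stayed within 1.5 times of that under every alternative run. It was 1 in 2-factor PC and became 2 with no minimum, 0 at 4-fold, 2 with cluster 3 only and 2 without cluster 8. It was 2 in 3-factor PC and became 1 after thinning, 1 at a 100 CPM minimum, 1 at 4-fold, 4 with cluster 7 only, 1 with cluster 8 only, 1 with cluster 10 only and 4 without cluster 8. The cause was not tested. No paired analysis was possible because each population is 1 library. A library could not be left out for the same reason. The ratios of Smoc1 and Smoc2 in the pericyte-derived libraries rest on 3 to 18 UMIs, and those of Sparcl1 to MEF on 1 UMI in MEF.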
